A study of Mus musculus with 8 samples.

Results

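The annexins *Anxa1*, *Anxa2*, *Anxa4*, *Anxa5*, *Anxa6* and *Anxa7* and the S100 genes *S100a4*, *S100a6*, *S100a10* and *S100a11* were examined in mouse gastrocnemius (GAS) muscle after long-term knockdown of MYTHO (MYTHO-KD). These 10 genes were looked up by symbol among the 22206 probe sets of the Clariom S Mouse array, on which a group of short probes gives 1 signal per gene. Each of the 10 was listed for 1 probe set, so no measured value decided which probe set stood for a gene. They were compared with the 18 other annexin and S100 genes that the array measures, 6 annexins and 12 S100 genes.

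Both groups were GAS muscles of male wild-type C57/Bl6j mice that were 22 weeks old when the tissue was taken. The MYTHO-KD group (AAV sh-RNA MYTHO) had received an adeno-associated virus (AAV) of a serotype that favours skeletal muscle. It expressed a short hairpin RNA (sh-RNA) directed at the transcript of *D230025D16Rik*, the gene for MYTHO. The scramble group (AAV sh-RNA scramble) had received the same kind of virus with a scrambled hairpin in the opposite leg. All muscles thus carried a virus and an expressed hairpin, whose U6 promoter is active in most cell types, and the sh-RNA against MYTHO is a single one, so an effect of this hairpin on other transcripts cannot be told apart from the knockdown. The injection was given at about 10 weeks of age, 12 weeks before the tissue was taken, and there were 4 arrays in each group. The MYTHO probe set was lower in MYTHO-KD muscles (average 7.71 with an SD of 0.66, against 10.02 with an SD of 0.37, on the log2 scale), which leaves 20.2% of the scramble signal (adjusted p = 0.0138, limma). All 12 muscle fibre markers were flagged as expressed in both groups, and 8 of them lay above 19 on the log2 scale, near the top of the range.

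Annexins are soluble proteins that bind negatively charged phospholipids of membranes when calcium rises, and several of them gather at tears in the plasma membrane of muscle fibres. S100 proteins are small calcium-binding proteins that work as pairs and attach to partner proteins, annexins among them. *S100a10* pairs with *Anxa2*, and *S100a11* with *Anxa1* and *Anxa2*, which links both families in membrane traffic and membrane repair. Genes of both families are also expressed by macrophages, fibroblasts and endothelial cells, which are part of every whole-muscle sample.

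The values are averages and SDs of log2 signals over the 4 arrays of a group, as the authors' table gives them, so single muscles cannot be shown. Differences (MYTHO-KD minus scramble, log2) were tested with limma's moderated test, in which the variance of each probe set is drawn toward that of all probe sets. The test was two-sided, and p-values were adjusted over all probe sets by Benjamini-Hochberg. The sources used here do not state which kind of average the table holds, and the p-values may be somewhat low if it is a robust one. The p-values measure the spread between 4 muscles a group. Although the scramble virus went into the opposite leg, the test did not pair the legs of a mouse, which needs the single muscles. Whether the 4 muscles of each group came from the same mice is not stated in the sources used here. The effect of leaving out the pairing on intervals and p-values was not tested.

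All 10 genes had a higher average in MYTHO-KD than in scramble muscles. The differences ran from 0.12 to 0.95 (log2) with a median of 0.69, whereas the median over all probe sets was -0.01 and 46.9% of probe sets were higher. At an unadjusted p under 0.05, 7 of the 10 passed as higher and 0 as lower (*Anxa2*, *Anxa4*, *Anxa5*, *Anxa7*, *S100a6*, *S100a10* and *S100a11*), and over all probe sets 6.48% passed as higher and 5.52% as lower. The 7 became 4 when the variances were not moderated and 3 when the groups were also given unequal variances. None of the 10 met the threshold used in the study, 2-fold with an unadjusted p under 0.05, which 0.86% of all probe sets met as higher and 0.257% as lower. At 1.5-fold with the same p 6 of the 10 passed as higher and 0 as lower, against 3.54% and 2.25% of all probe sets. None had an adjusted p under 0.05 either (limma), against 0.18% of all probe sets as higher and 0.0946% as lower. The differences were thus shared in direction, moderate in size, and below 2-fold in every case. The 10 genes were chosen with earlier results of these data known, so their counts describe the list and do not test it.

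**Figure D1:**
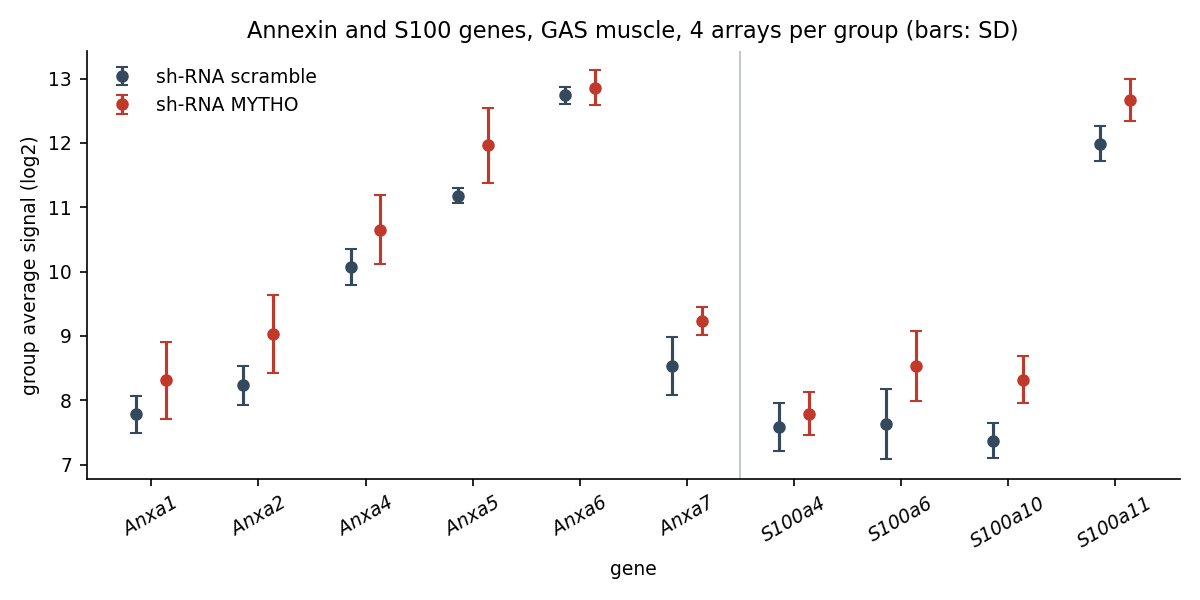
Group averages of the log2 signal of the 10 genes in GAS muscle (vertical axis), with scramble in blue and MYTHO-KD in red and bars showing the SD of 4 arrays. The MYTHO-KD average lies above the scramble average for every gene, from a difference of 0.12 for *Anxa6* to 0.95 for *S100a10*.

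The promoters of 4 of the 10 genes are shown as a description, and whether the genes share a control was not tested. RefSeq sequences (GRCm38.p6) gave a window of 300 bases, from 250 before to 50 after the transcription start, for 8 of the 10 genes. No window was available for *S100a10* and *Anxa6*, the genes with the largest and the smallest difference. Where a gene had 2 windows the one nearest to the start in the table was taken. *S100a11* and *Anxa2* are shown as a pair that acts in membrane repair, and *S100a6* and *S100a4* as close neighbours on chromosome 3, of which the former passed and the latter did not. Capitals mark matches on either strand to TATAAA (the TATA box), to CCAAT (a common promoter box), to GGGCGG (the GC box) and to TGANTCA (the letters bound by AP-1, a factor of the stress and growth response), and each sequence runs 5′ to 3′ on the strand of the gene.
S100a11 (plus strand, chr3:93520246-93520545): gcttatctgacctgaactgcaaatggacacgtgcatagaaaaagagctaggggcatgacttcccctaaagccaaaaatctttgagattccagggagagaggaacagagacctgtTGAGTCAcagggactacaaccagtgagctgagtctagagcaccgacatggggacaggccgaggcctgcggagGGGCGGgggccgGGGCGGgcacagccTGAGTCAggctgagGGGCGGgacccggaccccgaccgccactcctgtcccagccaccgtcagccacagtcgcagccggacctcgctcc
Anxa2 (plus strand, chr9:69453433-69453732): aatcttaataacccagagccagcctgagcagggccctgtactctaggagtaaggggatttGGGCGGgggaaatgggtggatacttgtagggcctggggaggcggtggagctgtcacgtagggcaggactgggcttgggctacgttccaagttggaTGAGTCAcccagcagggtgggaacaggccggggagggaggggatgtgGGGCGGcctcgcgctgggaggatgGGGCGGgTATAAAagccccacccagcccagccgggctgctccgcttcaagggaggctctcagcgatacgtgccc
S100a6 (plus strand, chr3:90612644-90612943): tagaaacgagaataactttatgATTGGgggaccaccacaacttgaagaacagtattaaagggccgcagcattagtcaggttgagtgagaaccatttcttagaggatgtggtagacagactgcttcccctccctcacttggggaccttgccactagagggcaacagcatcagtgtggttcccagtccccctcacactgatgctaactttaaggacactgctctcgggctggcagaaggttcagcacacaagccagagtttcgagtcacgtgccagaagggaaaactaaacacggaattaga
S100a4 (plus strand, chr3:90603520-90603819): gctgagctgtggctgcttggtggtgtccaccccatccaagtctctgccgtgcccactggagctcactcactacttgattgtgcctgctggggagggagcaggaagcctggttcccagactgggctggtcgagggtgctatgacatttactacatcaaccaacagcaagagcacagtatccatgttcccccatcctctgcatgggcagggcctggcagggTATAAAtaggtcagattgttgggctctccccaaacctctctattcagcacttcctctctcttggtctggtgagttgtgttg

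The letters of the AP-1 site stood in 2 of the 8 windows, those of *S100a11* (at -136 and -38 from the start) and *Anxa2* (at -95), and in 7.81% of the 32851 mouse windows of the same length. The GC box stood in 4 of the 8 (*Anxa2*, *Anxa4*, *Anxa7* and *S100a11*) and in 35.7% of all windows. The TATA box stood in 3 of the 8, those of *Anxa1* (-32), *Anxa2* (-17) and *S100a4* (-31), and in 13.6% of all. CCAAT stood in 1, that of *S100a6* (-228, on the opposite strand), and in 37.4% of all. The forkhead letters TGTTTAC, which FoxO factors bind, stood in 0 of the 8 and in 3.65% of all windows. The GC content of the 8 windows ran from 44.7% in *Anxa7* to 65.3% in *Anxa4*. No 2 of these matches overlapped, and a match is a description of letters and not of binding.

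Among the annexins, *Anxa2*, *Anxa5* and *Anxa7* differed most. *Anxa2* (chr9:69453620-69491795, mm10), which bridges membranes and the actin skeleton together with *S100a10*, had an average of 9.03 with an SD of 0.61 in MYTHO-KD muscles and 8.23 with an SD of 0.30 in scramble muscles. Its difference of 0.80 (standard error 0.28, 95% interval 0.19 to 1.41) corresponds to 1.74-fold (adjusted p = 0.278, limma). The averages lay apart, but the ranges of 1 SD around them met, since the MYTHO-KD muscles were widely spread.

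*Anxa5* (chr3:36448923-36475887), whose protein binds phosphatidylserine and is used to stain dying cells, had an average of 11.96 with an SD of 0.59 in MYTHO-KD and 11.18 with an SD of 0.12 in scramble muscles. The difference was 0.78 (standard error 0.257, interval 0.22 to 1.34), or 1.72-fold (adjusted p = 0.247, limma). The scramble muscles were tightly grouped, and the SD in MYTHO-KD was 4.92 times theirs. *Anxa7* (chr14:20455261-20480133), or synexin, which binds the calcium-binding protein sorcin, was the one annexin of the 6 with the smaller SD in MYTHO-KD. Its averages were 9.23 (SD 0.22) in MYTHO-KD and 8.53 (SD 0.45) in scramble muscles, a difference of 0.70 (standard error 0.227, interval 0.20 to 1.20) or 1.62-fold (adjusted p = 0.238, limma).

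*Anxa4* (chr6:86736840-86793584), an annexin known from secretory epithelia, had averages of 10.65 (SD 0.54) in MYTHO-KD and 10.07 (SD 0.28) in scramble muscles, 1.49-fold (adjusted p = 0.403, limma). Its interval of 0.02 to 1.14 (log2) nearly reached 0. *Anxa1* (chr19:20373428-20390944), a glucocorticoid-induced protein that dampens inflammation, had averages of 8.31 (SD 0.60) and 7.78 (SD 0.29), and its difference of 0.53 did not pass (interval -0.07 to 1.13, adjusted p = 0.477, limma). *Anxa6* (chr11:54978962-55033471), the large annexin with a doubled core that forms the repair cap of muscle fibres, had averages of 12.86 (SD 0.27) and 12.74 (SD 0.13). The difference of 0.12 did not pass (interval -0.27 to 0.51, adjusted p = 0.854, limma), and 31.3% of all probe sets had a larger one. The interval of *Anxa6* reached 1.42-fold and overlapped those of the 5 annexins above, whose estimates ran from 1.44-fold to 1.74-fold.

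Among the S100 genes, *S100a10* had the lowest p of the 10. This gene (chr3:93555080-93564645) encodes the S100 protein that has lost calcium binding and holds *Anxa2* at the plasma membrane. Its averages were 8.32 (SD 0.37) in MYTHO-KD and 7.37 (SD 0.27) in scramble muscles. The difference of 0.95 (standard error 0.216, interval 0.48 to 1.42) corresponds to 1.93-fold (adjusted p = 0.0993, limma), and 1.04% of all probe sets had a larger rise.

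*S100a6* (chr3:90612894-90614415), or calcyclin, which is linked to proliferating cells and fibroblasts, had averages of 8.53 in MYTHO-KD and 7.63 in scramble muscles. The SD was 0.55 in both groups, and the difference of 0.90 (standard error 0.311, interval 0.22 to 1.58) corresponds to 1.87-fold (adjusted p = 0.27, limma). *S100a11* (chr3:93520488-93526288), or calgizzarin, the partner of *Anxa1* and *Anxa2*, had averages of 12.67 (SD 0.33) and 11.99 (SD 0.27). Its difference was 0.68 (standard error 0.207, interval 0.23 to 1.13), or 1.60-fold (adjusted p = 0.208, limma). *S100a4* (chr3:90603770-90606045), also called fibroblast-specific protein, had averages of 7.79 (SD 0.33) and 7.58 (SD 0.37), and its difference of 0.21 did not pass (interval -0.28 to 0.70, adjusted p = 0.783, limma).

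In order of the difference the genes ran *S100a10* (0.95), *S100a6* (0.90), *Anxa2* (0.80), *Anxa5* (0.78), *Anxa7* (0.70), *S100a11* (0.68), *Anxa4* (0.58), *Anxa1* (0.53), *S100a4* (0.21) and *Anxa6* (0.12). All 10 intervals held the values from 0.48 to 0.51, so neighbours in this order were not separated. Whether 2 genes differed in their change was not tested, since that needs the single muscles. The partners *Anxa2* and *S100a10* were 1.74-fold and 1.93-fold higher and *S100a11* 1.60-fold, while the partner *Anxa1* did not pass. The median difference was 0.64 in the 6 annexins and 0.79 in the 4 S100 genes.

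**Figure D2:**
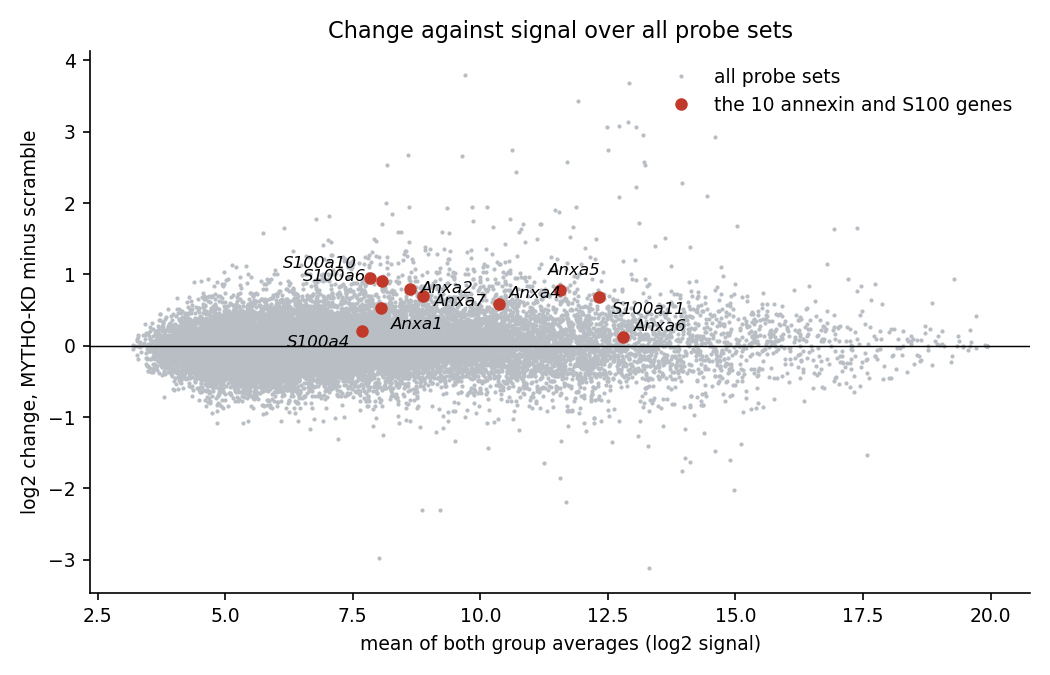
Difference between MYTHO-KD and scramble (log2, vertical axis) against the mean of both group averages (log2 signal, horizontal axis) for all 22206 probe sets in grey and the 10 genes in red. The 10 lie above 0, between 0.12 and 0.95, at mean signals from 7.69 to 12.8, and 61.7% of all probe sets are dimmer than the dimmest of them.

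The spread within the groups was also uneven. The median SD of the 10 genes was 0.455 in MYTHO-KD and 0.285 in scramble muscles, whereas over all probe sets it was 0.27 in each. The SD was larger in MYTHO-KD for 7 genes, smaller for 2 (*Anxa7* and *S100a4*) and equal for *S100a6*, and it was larger for 48.1% of all probe sets. It was at least 2 times larger in MYTHO-KD for 4 genes, *Anxa1* (2.07), *Anxa2* (2.03), *Anxa5* (4.92) and *Anxa6* (2.08), a ratio that 16.4% of all probe sets reached. In the other direction, it was at least 2 times larger in scramble muscles for 1 gene, *Anxa7*, and for 3708 of the 22206 probe sets. The MYTHO-KD average was higher by more than the sum of both SDs, so that the ranges of 1 SD around the averages did not meet, for *Anxa5*, *Anxa7*, *S100a10* and *S100a11*, and 4.07% of all probe sets met this. Without the single arrays it was not tested whether 1 muscle accounts for the wide spread of the annexins.

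**Figure D3:**
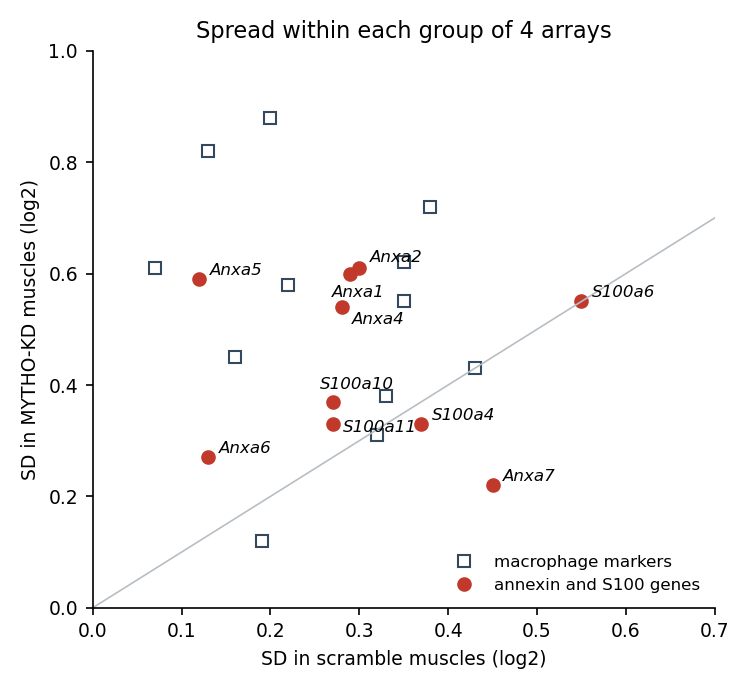
SD of the log2 signal over 4 arrays in MYTHO-KD muscles (vertical axis) against scramble muscles (horizontal axis) for the 10 genes (red) and 12 macrophage markers (open squares), with the line of equal SD. *Anxa1*, *Anxa2*, *Anxa4*, *Anxa5*, *Anxa6*, *S100a10* and *S100a11* lie above the line, as do 9 of the macrophage markers, and *Anxa7* lies below it.

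The remaining members of both families lay on both sides of 0. Of the 6 other annexins 4 were higher and 2 lower, with a median of 0.04 and 0 at an unadjusted p under 0.05 in either direction. *Anxa3* had the largest difference above 0, at 8.36 against 7.98 (0.38, adjusted p = 0.62, limma), and *Anxa8* the largest below 0, at 4.79 against 5.22 (-0.43, adjusted p = 0.507, limma). *Anxa11*, which tethers RNA granules to lysosomes, was at 12.95 in MYTHO-KD and 13.08 in scramble muscles (-0.13, adjusted p = 0.843, limma). Of the 12 other S100 genes 4 were higher and 8 lower, with a median of -0.115 and again 0 at an unadjusted p under 0.05. *S100a1*, the S100 protein of striated muscle that acts on calcium release and uptake, was at 11.67 against 12.06 (-0.39, adjusted p = 0.486, limma). Of these 18 genes 12 were dim, with a mean signal under the 30th percentile of all probe sets (5.72), where a difference can be hidden, while 0 of the 10 described genes were. Of the 6 brighter ones 3 were higher and 3 lower, none at an unadjusted p under 0.05. The difference between these lists and the 10 genes was not tested, and all were chosen with earlier results of these data known. These counts and those of the 10 genes kept their direction when the differences were centred on the median of all probe sets or of probe sets of like signal.

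On chromosome 3 most S100 genes lie in a row, in which *S100a6* passed and its nearest neighbours on either side did not. *S100a4* and *S100a6* flank *S100a5*, at 2.48 kb and 1.11 kb from it, and the differences along this stretch were 0.21, -0.13 and 0.90 (log2) in the order *S100a4*, *S100a5*, *S100a6*. The next genes of the row, *S100a7a*, *S100a8* and *S100a9*, had differences of -0.05, -0.21 and -0.27. *S100a11* and *S100a10* lie 2820 kb further on and 28.8 kb from each other, and both passed (0.68 and 0.95). The intervals of *S100a5* (-0.54 to 0.28) and *S100a6* (0.22 to 1.58) overlapped narrowly, and the difference between them was not tested.

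**Figure D4:**
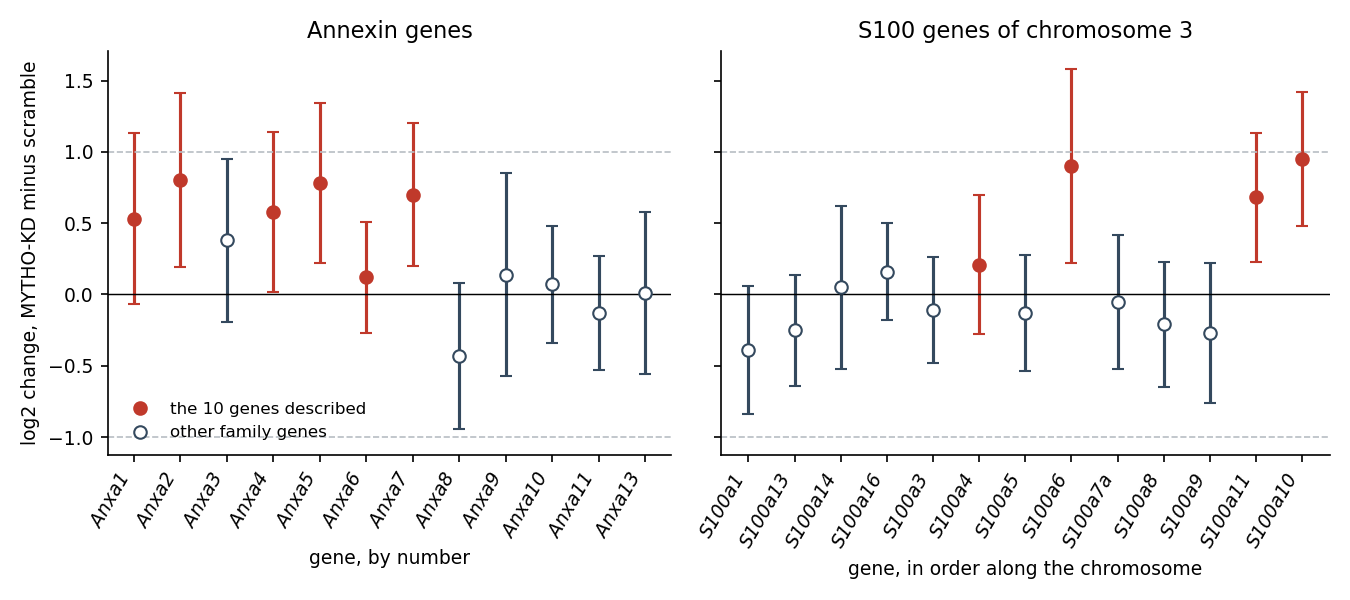
Difference between MYTHO-KD and scramble (log2) with its 95% interval for 12 annexin genes in numerical order (left) and 13 S100 genes in their order along chromosome 3 (right), the 10 described genes filled and the others open, with dashed lines at 2-fold. The 10 lie above 0, and the intervals of all open points include 0. Among the open points *Anxa8*, *Anxa10*, *Anxa13*, *S100a3*, *S100a5*, *S100a7a*, *S100a8*, *S100a13* and *S100a14* are dim, where a difference can be hidden.

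Binding partners and receptors of these proteins were counted as a list of 16 genes on 15 probe sets, as *Fpr2* and *Fpr3* share one. Of these 10 were higher and 5 lower (4 lower and 1 level when centred by signal), and 2 passed at an unadjusted p under 0.05, both higher. *Tlr4*, an innate immune receptor to which some S100 proteins bind, was at 8.69 (SD 0.42) in MYTHO-KD and 7.22 (SD 0.39) in scramble muscles, a difference of 1.47 (adjusted p = 0.038, limma). *Sri*, which encodes sorcin, the partner of *Anxa7*, was at 8.47 (SD 0.32) against 7.66 (SD 0.33), a difference of 0.81 (adjusted p = 0.154, limma). *Ahnak*, the scaffold that *Anxa2* and *S100a10* hold at the membrane, did not pass (0.30, adjusted p = 0.619, limma), nor did *Cacybp*, the calcyclin-binding protein (-0.08, adjusted p = 0.916, limma). *Ager*, another receptor of S100 proteins, was at 5.67 against 6.04 (-0.37, adjusted p = 0.644, limma). *Fpr1*, a receptor of *Anxa1*, was dim, at 4.82 against 5.12 (-0.30, adjusted p = 0.655, limma). The probe set that *Fpr2* and *Fpr3* share went the other way, at 6.27 against 5.99 (0.28, adjusted p = 0.731, limma).

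Of 13 other genes of membrane repair 12 were higher and 1 lower, with a median of 0.29. *Myof*, a ferlin of regenerating muscle, was at 8.81 (SD 0.66) against 7.90 (SD 0.23), a difference of 0.91 (adjusted p = 0.221, limma), and *Cavin1*, a coat protein of caveolae listed as *Ptrf*, at 11.83 against 11.08, a difference of 0.75 (adjusted p = 0.204, limma). These 2 passed at an unadjusted p under 0.05, and *Myof* had the wider spread in MYTHO-KD, as 5 of the 6 annexins did. *Dysf*, which encodes dysferlin, differed by 0.33 (adjusted p = 0.633, limma) and *Trim72*, which encodes the repair protein of fibre membranes MG53, by 0.19 (adjusted p = 0.782, limma). Neither passed, and whether their differences were smaller than those of *Anxa2*, *Anxa5* or *S100a10* was not tested.

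Macrophage, fibroblast and endothelial markers were higher beside the 10 genes, while neutrophil and Schwann cell markers were mixed in direction. All 12 macrophage markers were higher, 8 of them at an unadjusted p under 0.05 and 4 at 2-fold, with a median of 0.695, and the 8 became 4 without moderation. Their summed linear signal was 5360 in MYTHO-KD and 2300 in scramble muscles. *Cd68*, of macrophage lysosomes, was at 9.43 (SD 0.88) against 6.90 (SD 0.20), a difference of 2.53 (adjusted p = 0.0182, limma), and *Lyz2*, a lysozyme, differed by 1.94 (adjusted p = 0.0277, limma). *C1qb*, of the complement system, differed by 1.27 (adjusted p = 0.0754, limma) and *Ctss*, a lysosomal protease, by 1.10 (adjusted p = 0.131, limma). *Csf1r*, *C1qc*, *Cd163* and *Itgam* also passed at an unadjusted p under 0.05. *Adgre1* was among those that did not (0.48, adjusted p = 0.432, limma). The SD was larger in MYTHO-KD for 9 of the 12 macrophage markers, smaller for 2 and equal for 1, and larger for 48.1% of all probe sets. For fibroblast markers it was larger for 6 and smaller for 5, and for endothelial markers larger for 3 and smaller for 5. Of the muscle fibre markers it was larger for 8, smaller for 1 and equal for 3. All 12 fibroblast and fibro-adipogenic progenitor markers were higher too, 5 at an unadjusted p under 0.05, with a median of 0.665 and a summed signal of 183000 against 137000. *Lum*, a matrix proteoglycan, differed by 1.49 (adjusted p = 0.0443, limma) and *Col3a1*, a fibrillar collagen, by 1.43 (adjusted p = 0.102, limma). *Cd34*, a surface protein of progenitors and vessels, differed by 0.65 (adjusted p = 0.154, limma) and *Fbn1*, of microfibrils, by 1.03 (adjusted p = 0.246, limma). *Gsn* was the fifth that passed, and *Pdgfra* (0.18), *Dcn* (0.28) and *Thy1* (0.03) were among those that did not. All 8 endothelial markers were higher with a median of 0.355, 2 at an unadjusted p under 0.05 (*Kdr*, with a difference of 0.75, and *Eng*, with 0.64). *Pecam1* (0.22) was among those that did not pass. The summed signal of the 8 was 23300 against 16700.

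For the 10 genes the summed signal was 21900 in MYTHO-KD and 15700 in scramble muscles. Such sums follow the brightest probe sets, which in MYTHO-KD made up 34.0% (*Anxa6*) of the sum of the 10 genes, 41.2% (*Lyz2*) of the macrophage, 64.9% (*Dcn*) of the fibroblast and 40.9% (*Cdh5*) of the endothelial sum, so they are not compared between lists. The part of these cells in the higher annexin and S100 signal was not tested. In whole muscle, more cells of a type and more RNA per cell cannot be told apart. Neutrophil markers, among them the S100 genes *S100a8* and *S100a9*, were 4 higher and 4 lower with 0 at an unadjusted p under 0.05 (1 lower without moderation) and a summed signal of 399 against 417. Of these 8 probe sets 4 were dim, and the brightest, *Cxcr2*, had a mean of 6.25, which 59.3% of all probe sets exceeded. At such low signals a change in neutrophil markers can be hidden. *S100a8* was at 4.19 in MYTHO-KD and 4.40 in scramble muscles and was flagged as not expressed in MYTHO-KD. Of 7 Schwann cell markers, *S100b* among them, 3 were higher and 4 lower with a median of -0.17 and 0 at an unadjusted p under 0.05.

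Of 9 satellite cell and regeneration markers 6 were higher, 2 lower and 1 level. At an unadjusted p under 0.05, 3 passed, all higher (2 without moderation). They were *Mymk*, the myoblast fusion protein listed as *Tmem8c* (difference 1.77), *Myh3*, the embryonic myosin (1.27), and *Vim*, the intermediate filament vimentin (0.94), and the median of the list was 0.18. *Pax7* (0.18), *Myf5* (-0.04), *Myod1* (-0.40) and *Myog* (0.21) did not pass, and the first 2 of these were dim. *Myh8* was at the top of the scale in both groups (19.93), where a change cannot be seen. For *Myog* and *Myh8* the paper reports higher expression at various times after the knockdown, measured by RT-qPCR in the tibialis anterior muscle. Of 12 muscle fibre markers 3 were higher, 6 lower and 3 level, with a median of -0.015 and summed signals of 7740000 and 7230000. The 3 higher ones, *Mb* (0.93), *Myh1* (0.59) and *Myh2* (0.41), passed at an unadjusted p under 0.05. *Myh2* was at 19.91 with an SD of 0.01 in MYTHO-KD and 19.5 with an SD of 0.16 in scramble muscles. Its MYTHO-KD average lay near the largest average of the arrays (19.93), so the size and p of its difference are uncertain. For this gene the paper reports lower expression after the knockdown, in the tibialis anterior muscle. The counts above and below 0 in the muscle fibre list moved with the centring (6 and 6, or 3 and 9). With 8 of the 12 near the top of the scale, a rise in these could be hidden. The median SD in MYTHO-KD was 0.565 for the 6 annexins and for the macrophage markers and 0.35 for the 4 S100 genes. It was 0.49 for Schwann cell, 0.4 for fibroblast, 0.29 for endothelial and 0.135 for muscle fibre markers. A difference between these was not tested.

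**Figure D5:**
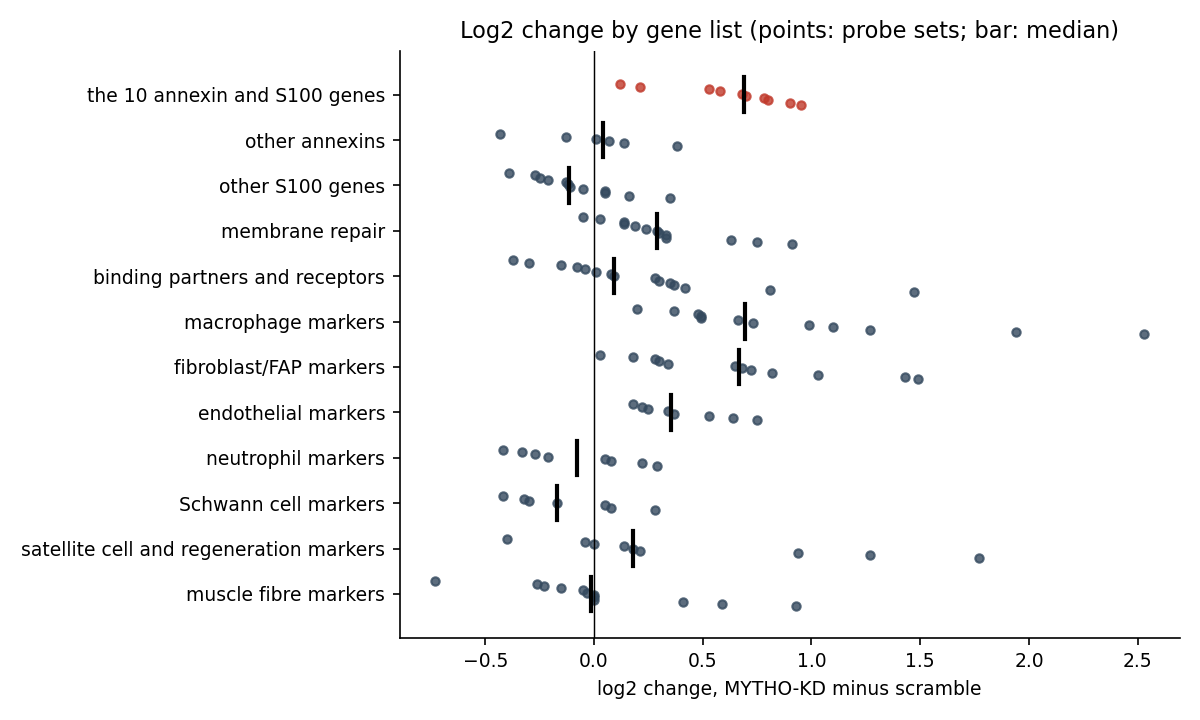
Difference between MYTHO-KD and scramble (log2, horizontal axis) for each probe set of the 10 genes (red) and of 11 other gene lists (blue), with a black bar at the median of each list. The medians are 0.69 for the 10 genes, 0.04 and -0.115 for the other annexins and S100 genes, 0.695 for macrophage and 0.665 for fibroblast markers, and -0.08 for neutrophil markers.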

How the data were processed

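Total RNA of GAS muscle was hybridized to Clariom S Mouse arrays (8 arrays, 4 per group). Following the study's methods, the authors processed the arrays with SST-RMA and default settings of the Transcriptome Analysis Console, while the submitters' processing notes name Affymetrix Expression Console, RMA and build mm10. SST-RMA stretches low signals, which affects fold changes. The deposited table (28 columns) gives the log2 average and SD of each group and a flag for expression, with decimal commas. It also holds the authors' fold changes, p-values and false discovery rates, which were not used. It has 0 columns of single arrays, so the planned fit on arrays was replaced by the same moderated test from averages and SDs (squeezeVar of limma 3.58.1 in R 4.3.3, 6 residual degrees of freedom, prior SD 0.284, prior degrees of freedom 5.85), tested on simulated data. Groups came from the sample labels. All 10 members, the targeted gene and genes of each other list at an unadjusted p under 0.05 (at most the 4 of lowest p with values) or defining a cell type were to be named. Other genes named without passing, such as *Anxa3*, *Anxa8*, *Anxa11* and *S100a1*, were chosen after their values were seen. The members and all lists were chosen with earlier results of these data known. All 10 members matched RefSeq by symbol, whose promoter windows were searched on both strands. The alternatives were other variance models, leaving out the dimmest probe sets (below the 30th percentile of mean signal, 5.72), both centrings, 1 probe set per symbol and 1.5-fold. Arrays have no read depth, and their number limits the precision.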

Additional observations from a re-analysis of the deposited data

How the results depend on the processing

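The 7 genes at an unadjusted p under 0.05 became 4 without moderation of the variance and 3 with unequal variances. *Anxa2*, *Anxa4* and *S100a6* were lost under both of these versions, and *Anxa5* under unequal variances. *Anxa4* was also lost when differences were centred by signal. The cause was not tested. *Anxa7*, *S100a10* and *S100a11* passed in all 7 alternatives with a fit, and *Anxa1*, *Anxa6* and *S100a4* in 0 of 7. The adjusted p of *S100a10* ranged from 0.0639 to 0.429 over them, and none of the 10 genes had an adjusted p under 0.05 in any of the 7. With 1.5-fold in place of 2-fold, 6 of the 10 genes passed as higher and 0 as lower, against 3.54% and 2.25% of all probe sets. The other annexins and S100 genes had 0 at an unadjusted p under 0.05 in every setting, in which the filter on dim probe sets kept 6 of the 18. The median difference stayed between 0.68 and 0.70, and no difference of the 10 changed sign. Of the 12 macrophage markers, the 8 that passed became 4 both without moderation and with unequal variances, and the 5 fibroblast markers became 3 and the 2 endothelial markers 1 under each. The 2 membrane repair genes became 1 with unequal variances and 3 with a trend in the variance or centring on the median. The 3 satellite cell and regeneration markers became 2 without moderation, with unequal variances and with the trend. In place of 0, 1 neutrophil marker passed as lower in the first 2 of these settings and 1 muscle fibre marker in all 3. No paired analysis was possible because the table holds group averages and no single arrays, and for the same reason no array was left out in turn. A difference can go unseen where signals lie near either end of the scale.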
